A study of Mus musculus with 10 samples.

Results

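The genes of the bone morphogenetic protein (BMP) pathway were followed in cultured granule cell precursors (GCPs) of the mouse cerebellum, the dividing cells that become the granule neurons of the cerebellum. The set held 33 genes named by their place in the pathway: 6 Bmp genes, 6 receptors, 6 Smads, the 4 Id genes, 9 antagonists or modulators and the homeobox genes Msx1 and Msx2. The 6 Bmp genes are listed here as ligands, although Bmp1 encodes a protease. Each of the 33 was read from the brightest of its probe sets over all 10 arrays. All 33 were among the 18193 genes named on the array, and 26 of them were among the 11405 genes bright enough to test, with a mean signal of at least 76.1. Bmp2, Bmp7, Smad6, Smad9, Nog, Chrdl1 and Grem1 fell below that filter.

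The cultures were either wild type or labelled Bmi1 knockout, and Bmi1 encodes a subunit of the Polycomb repressive complex PRC1. Both kinds were prepared from pups aged 5 to 7 days, with meninges and blood vessels removed by the protocol. They were kept for 24 hours with 10% fetal calf serum and 20 mM KCl, and were left untreated (3 arrays per genotype) or given sonic hedgehog (Shh), the main mitogen of these precursors, for 24 hours (2 arrays per genotype, at a concentration labelled as 3 mg/ml). Replicates are numbered from 1 to 10, with odd numbers for wild type, even numbers for labelled knockout and 7 to 10 for Shh. The labels give the same 24 hours of growth for every culture and do not say whether those of Shh fell within them. How many animals went into each culture and which part of Bmi1 was deleted are not given in the sources used here. Wild type replicate 3 is untreated by its title, although its treatment note mentions Shh where applicable. The p-values measure the spread between these arrays alone.

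BMP ligands bind pairs of type I and type II receptor kinases, which phosphorylate Smad1, Smad5 or Smad9. These join Smad4 in the nucleus and switch on genes that include the Id genes, Msx2, Smad6, Smad7 and Bambi, several of which feed back to dampen the pathway. In the developing cerebellum BMP signals are known to help specify granule cell precursors early on, and BMP2 and BMP4 are known to oppose the mitogenic action of Shh on them later.

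Every array had a trimmed mean signal of 500, but the medians ranged from 84.4 to 90.9 without Shh and from 66.6 to 72.1 with it. The 18S control read 2030 on wild type replicate 1 and 6301 on labelled knockout replicate 6, against 219 to 648.6 on the others. Without those 2 arrays 9 pathway genes passed for Shh in wild type (34.6%, against 29.4% of all tested genes) and 6 in labelled knockout (23.1%, against 22.2%). Bmpr2 (both genotypes), Acvr1 and Smurf2 lost their calls. Bmi1 was present on every array. By its brighter probe set it read 3673, 4253 and 3948 in untreated wild type and 3510, 3904 and 3416 in untreated labelled knockout cultures, and 4515 and 4165 against 3432 and 3416 with Shh. The untreated groups overlapped and the treated groups did not. Averaged over both conditions the labelled knockout level was 84.9% of wild type (log2 difference -0.24, SE 0.07, adjusted p = 0.186 by limma). The probe set may lie outside the deleted part and so does not check the genotype, and every direction between genotypes rests on the labels. The markers of granule precursors and neurons were present: all 9, among them Atoh1, Zic1 and Pax6, were tested, none was at the floor of 20.9 and none changed past the threshold in any of the 6 comparisons. The cultures also held signal of other cell types, described with the Shh results.

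Past the threshold, 10 of 26 tested pathway genes (38.5%) were lower with Shh in wild type cultures, against 19.8% of all tested genes. In labelled knockout cultures 8 (30.8%) were lower, against 17%. In wild type cultures the largest falls past the threshold were those of Msx2 (7.24-fold), Id3 (4.47-fold), Id4 (3.95-fold), Bmp4 (3.67-fold), Bambi (2.81-fold), Smad7 (2.38-fold) and Fst (2.10-fold), and all of these except Bmp4 were also lower past the threshold in labelled knockout cultures. The targets Id1 and Id2, the signal-carrying Smad1, Smad4 and Smad5 and the type I receptor Bmpr1a did not pass in either genotype. Markers of other cell types were also lower, with medians in wild type of -1.61 for astrocytes and Bergmann glia, -3.27 for endothelium and pericytes and -2.35 for Purkinje cells, and their part in these falls was not tested. The comparison asked how transcript levels moved with Shh within each genotype, by limma on the log2 scale with Benjamini-Hochberg adjustment over the 11405 genes and a threshold of 0.05.

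Of the 26 tested pathway genes, 11 passed in wild type cultures (42.3%, against 33.8% of all tested genes), 10 lower (38.5%, against 19.8%) and 1 higher (3.85%, against 14%). In labelled knockout cultures 8 passed (30.8%, against 28%), all of them lower (against 17% lower and 11% higher among all genes). The median log2 difference of the 26 was -0.39 in wild type and -0.33 in labelled knockout, where that of all tested genes was -0.01 in both. Values lay below 0 for 20 genes in wild type (76.9%, against 51.4%) and 21 in labelled knockout (80.8%, against 50.6%). Arrays of the treated and untreated groups did not overlap for 14 lower (53.8%, against 31.2%) and 1 higher gene (3.85%, against 27.3%) in wild type, and for 13 lower (50%, against 29.5%) and 1 higher gene (3.85%, against 26.1%) in labelled knockout. A large part of the transcriptome differed between treated and untreated cultures. On the deposited scale the share of pathway genes past the threshold in either direction was near that background in labelled knockout. In wild type it was above it, by an amount that was not tested and that changed with the scaling, as given below.

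**Figure D1:**
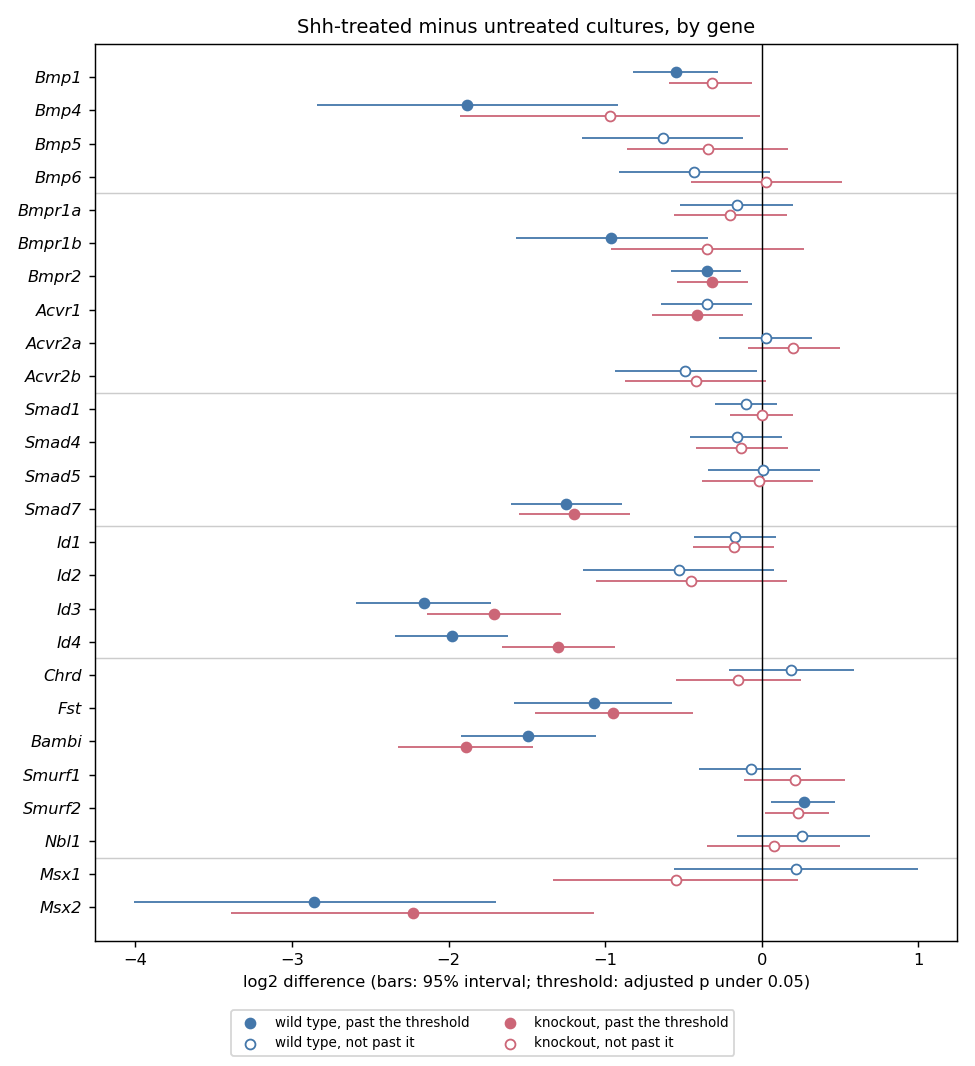
Log2 difference between Shh-treated and untreated cultures for the 26 tested BMP pathway genes, ordered by role from ligands at the top to homeobox targets at the bottom, with 95% intervals. Filled points passed an adjusted p of 0.05 in wild type (blue) or labelled knockout (red); Id3, Id4, Smad7, Bambi, Fst and Msx2 lay clearly below 0 in both genotypes.

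These values depend on how the arrays are scaled. Centring each array on its median moved the median Shh effect of all tested genes from -0.01 to 0.33 in wild type and 0.29 in labelled knockout. Under that scaling the split over all genes in wild type went from 2262 lower and 1593 higher to 1243 lower and 5181 higher, and in labelled knockout from 1939 and 1260 to 1127 and 4348. The split of the pathway genes went from 10 lower and 1 higher to 7 lower and 4 higher in wild type, and from 8 lower and 0 higher to 6 lower and 4 higher in labelled knockout. Counted in either direction, 42.3% of the pathway genes passed in wild type under median centring, against 56.4% of all tested genes. In labelled knockout 38.5% passed, against 48%, so both of these shares lay below the background. The share that passed as lower stayed above it. It was 7 of 26 in wild type, against 1243 of 11400 tested genes, and 6 of 26 in labelled knockout, against 1127 of 11400. Under quantile normalization the shares in either direction were 34.6% against 30.9% and 26.9% against 26.7%. The pathway genes that passed there, 9 in wild type and 7 in labelled knockout, were all lower. All tested genes split into 1805 lower and 1722 higher in wild type, and 1642 and 1401 in labelled knockout. Id3, Id4, Smad7, Bambi, Fst and Msx2 stayed lower and past the threshold in both genotypes under median centring. Those higher past it under that scaling were Acvr2a, Chrd, Nbl1 and Smurf2 in wild type and Acvr2a, Smad1, Smurf1 and Smurf2 in labelled knockout. Bmpr1a, Smad1, Smad4 and Id1 changed sign under a rescaling in both genotypes, as did Smurf1 in wild type and Chrd in labelled knockout. Smad5 lay within 0.02 of 0 in both genotypes and changed sign as well.

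**Figure D2:**
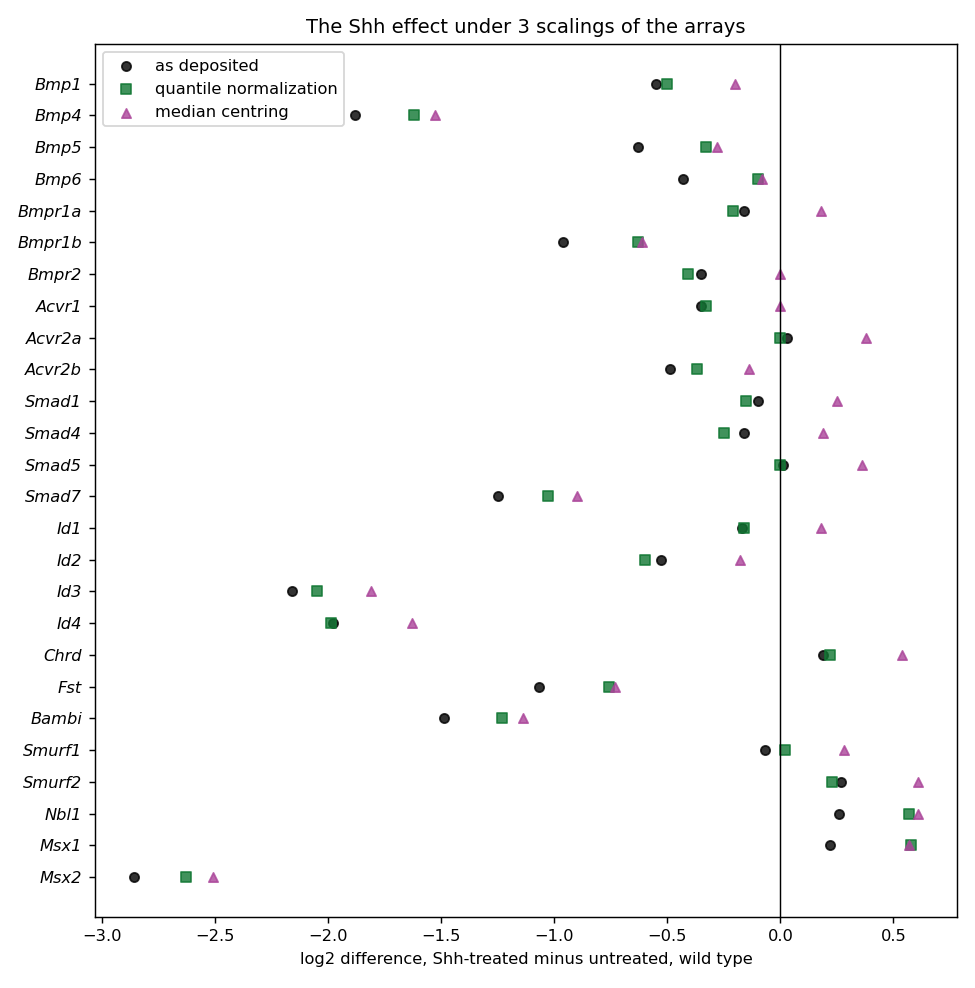
The Shh effect in wild type cultures (log2 difference, horizontal axis) for each tested pathway gene under the deposited scaling (circles), quantile normalization (squares) and median centring (triangles). Triangles lie to the right of the circles for every gene, while Msx2, Id3 and Id4 stay below -1.5 under each scaling.

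Among the ligands, Bmp4 had the largest value. Bmp4 read 163, 115 and 230 in untreated wild type cultures and 72.9 and 26.9 with Shh. In labelled knockout cultures it read 207, 211 and 191 untreated and 140 and 76.8 with Shh. The treated arrays lay below the untreated ones in both genotypes. The fall in wild type was 1.88 on the log2 scale (SE 0.43, adjusted p = 0.00892), and the labelled knockout value was -0.97 (SE 0.43, adjusted p = 0.123). It rested on replicate 9: without that array the wild type value was -1.16 (adjusted p = 0.0723), and without replicate 7 it was -2.60. The 2 genotypes' Shh effects on Bmp4 differed by 0.91 (95% interval -0.45 to 2.27), which did not pass.

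Bmp1, which despite its name encodes a secreted metalloprotease that cleaves procollagen and the BMP antagonist chordin, read 758 to 875 in untreated and 513 and 616 in Shh-treated wild type cultures. It fell by 0.55 there (SE 0.12, adjusted p = 0.00699) and had a value of -0.32 in labelled knockout (adjusted p = 0.0697). The wild type call was lost without replicate 7 (adjusted p = 0.0669) and under median centring (-0.20, adjusted p = 0.165). The ligand gene Bmp5 had values of -0.63 (SE 0.23, adjusted p = 0.0588) and -0.34, and Bmp6 of -0.43 and 0.03, neither past the threshold. Bmp2 lay near or below the floor, with signals of 9.51 to 29.6 over the 10 arrays. Bmp7, a ligand of the roof plate and kidney among other tissues, read 65 to 135 untreated and 23.4 to 91.7 with Shh and was not tested. Its probe sets, all below the filter, gave -0.93 and -0.74 (SE 0.49), -0.97 and -1.63 (SE 0.44) and -0.92 and -0.66 (SE 0.38).

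Of the 6 receptors, Bmpr1b and Bmpr2 fell in wild type and Bmpr2 and Acvr1 in labelled knockout. Bmpr2, the type II receptor dedicated to BMPs, read 4153 to 5207 on the untreated arrays of both genotypes and 3501 to 4093 on the treated ones. It fell by 0.35 in wild type (SE 0.10, adjusted p = 0.0232) and by 0.32 in labelled knockout (SE 0.10, adjusted p = 0.0408). The groups did not overlap, but the call was lost in wild type without replicate 1, 5, 7 or 9, and in labelled knockout without any 1 of 8 arrays (all but replicates 3 and 4). Under median centring the values were 0.00 and -0.03, and a dimmer probe set gave 0.14 in both. Bmpr1b, a type I receptor, read 206, 238 and 185 in wild type untreated and 127 and 91 with Shh, a fall of 0.96 (SE 0.27, adjusted p = 0.0247). That call was lost without replicate 3 (adjusted p = 0.0714) or 9 (-0.72, adjusted p = 0.174), under both rescalings and without the filter, and a dimmer Bmpr1b probe set below the filter gave 0.73. In labelled knockout the value was -0.35 (adjusted p = 0.381), and the difference between genotypes was 0.61 (95% interval -0.26 to 1.48).

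Acvr1, a type I receptor that also serves BMPs, had close values in both genotypes: -0.35 in wild type (SE 0.13, adjusted p = 0.0635) and -0.41 in labelled knockout (SE 0.13, adjusted p = 0.0422). Only the latter passed, the difference between them was -0.06 (95% interval -0.47 to 0.35), and the call was lost without replicate 1, 2, 4, 5, 6 or 10 and under median centring (-0.12). The type II receptors shared with activins gave -0.49 and -0.42 for Acvr2b and 0.03 and 0.20 for Acvr2a, and the type I receptor Bmpr1a gave -0.16 and -0.20, none past the threshold. Under median centring Acvr2a was higher past it in both genotypes (0.38, adjusted p = 0.0355, and 0.49, adjusted p = 0.0142). For Bmpr1a, the 95% interval of the wild type value ran from -0.52 to 0.20. Dimmer Bmpr1a probe sets above the filter gave -0.29 and -0.46 (SE 0.12), -0.34 and -0.31 (SE 0.18) and -0.43 and -0.40 (SE 0.14). The dimmest of those above the filter gave -0.03 and 0.13 (SE 0.13).

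By their brightest probe sets the signal-carrying Smads were flat within their error and the inhibitory Smad7 was not. Smad1, activated directly by BMP receptors, had Shh effects of -0.10 (95% interval -0.30 to 0.10) in wild type and 0.00 (-0.20 to 0.20) in labelled knockout. Smad5, its close relative, had 0.01 (-0.34 to 0.37) and -0.02 (-0.38 to 0.33), and the common partner Smad4 had -0.16 (-0.46 to 0.13) and -0.13 (-0.42 to 0.17). Dimmer Smad1 probe sets above the filter gave -0.30 and 0.18 (SE 0.12) and 0.12 and 0.19 (SE 0.08) in wild type and labelled knockout. Those of Smad5 gave -0.43 and -0.56 (SE 0.22) and -0.23 and -0.24 (SE 0.25). Those of Smad4 lay between -0.14 and 0.03. Under median centring Smad1 was higher with Shh in labelled knockout (0.29, adjusted p = 0.0377).

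Smad7, which blocks the receptors and is itself induced by BMP and TGF-beta, read 480, 485 and 402 in untreated wild type cultures and 216 and 170 with Shh. In labelled knockout cultures it read 339, 443 and 409 untreated and 161 and 185 with Shh. Every treated array lay below every untreated one. The Shh effects were -1.25 (SE 0.16, adjusted p = 0.000437) and -1.2 (SE 0.16, adjusted p = 0.000723), and a second probe set gave -0.90 and -1.19. The call held in both genotypes under every alternative in which it was tested. Smad6, the inhibitory Smad more selective for BMP, was below the filter at 26.4 to 44.5 untreated and 13.8 to 25 with Shh, and Smad9 at 19.6 to 46.4 and 12.3 to 22.5.

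The Id genes split into a pair that fell and a pair that did not pass. Id proteins hold a helix-loop-helix domain without a DNA-binding region, so they capture the E proteins that proneural factors need as partners. Id3 read 994, 1565 and 1158 in untreated wild type cultures and 246 and 302 with Shh, and 1484, 1772 and 1615 untreated and 537 and 457 with Shh in labelled knockout cultures. Id4 read 2638, 3905 and 3695 untreated and 869 and 836 with Shh in wild type, and 2931, 3141 and 3098 untreated and 1333 and 1155 with Shh in labelled knockout. For both genes the lowest untreated array was above the highest treated array of either genotype. Id3 fell by 2.16 in wild type (SE 0.19, adjusted p = 6.02e-05) and by 1.71 in labelled knockout (SE 0.19, adjusted p = 0.000319). Id4 fell by 1.98 (SE 0.16, adjusted p = 3.75e-05) and by 1.30 (SE 0.16, adjusted p = 0.000554). The 2 other Id4 probe sets gave -3.06 and -2.03 in wild type and -2.08 and -1.22 in labelled knockout, so all 3 had the same direction with different sizes. Both genes kept their calls under every alternative run.

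Id1, the Id gene most often used as a readout of BMP signalling, read 865 to 1063 untreated and 781 and 869 with Shh in wild type, and 1010 to 1074 and 891 to 953 in labelled knockout. Its Shh effects were -0.17 (95% interval -0.43 to 0.09, adjusted p = 0.285) and -0.18 (-0.44 to 0.08, adjusted p = 0.279). Id1 therefore moved far less than Id3 and Id4 on the log2 scale in the same cultures, though that difference between genes was not tested. Id2 read 3545, 5630 and 5662 untreated and 4014 and 2791 with Shh in wild type, with overlapping groups. Its values were -0.53 (SE 0.27, adjusted p = 0.165) and -0.45 (SE 0.27, adjusted p = 0.251), and its other bright probe set gave -1.01 and -0.74.

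**Figure D3:**
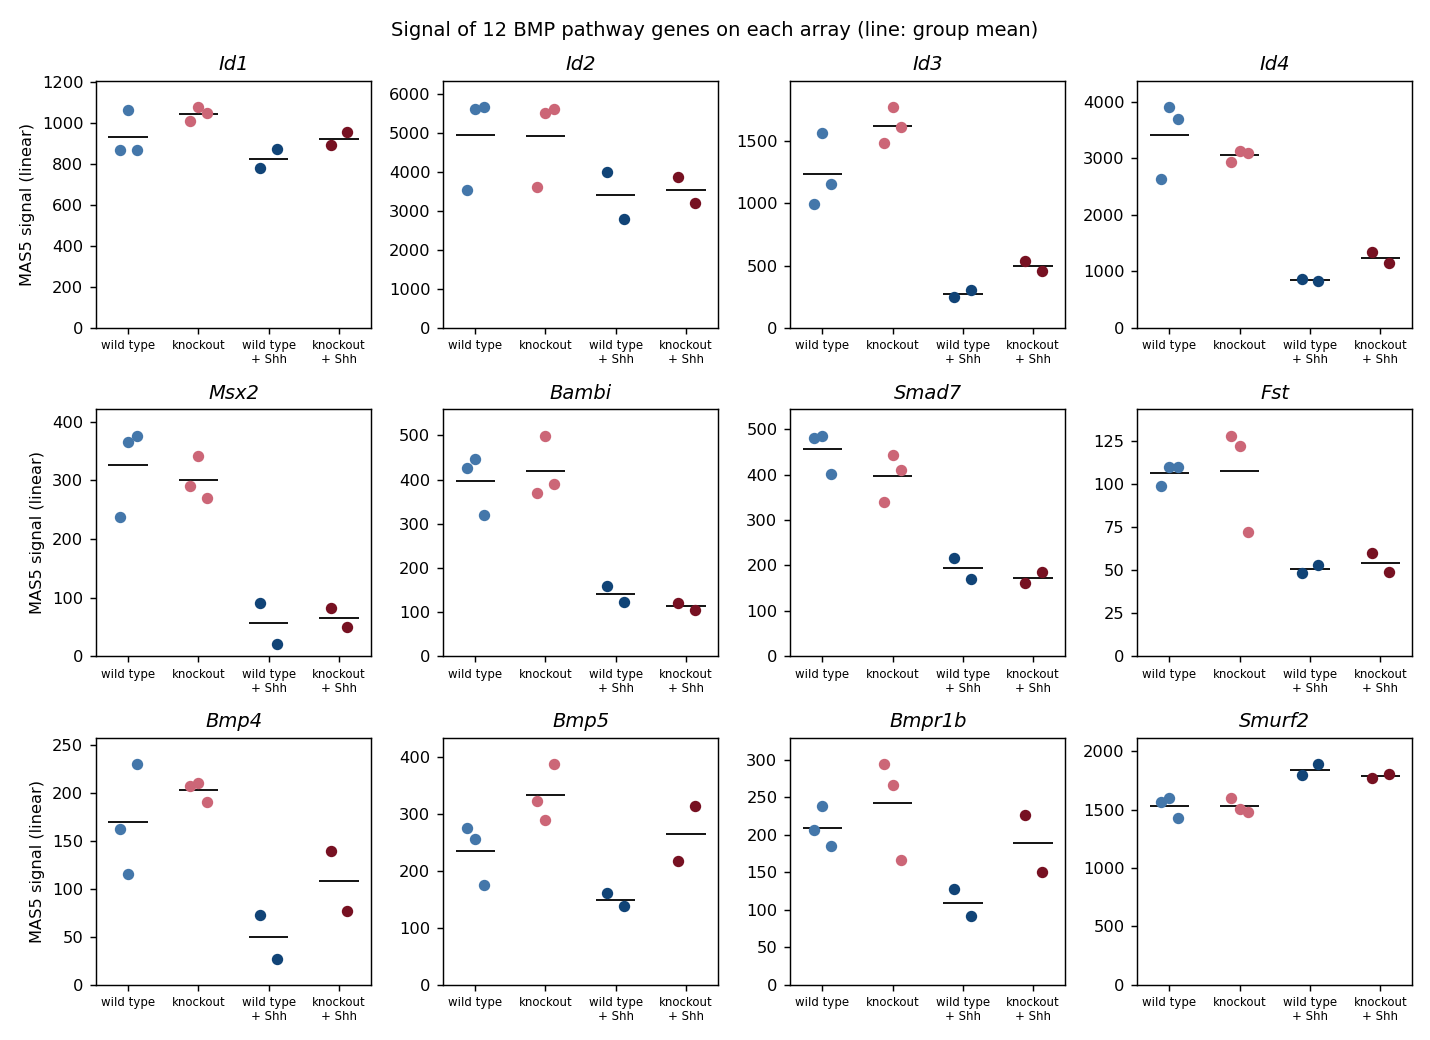
Signal on each array (points, linear MAS5 scale, each panel with its own axis from 0) and group means (lines) for 12 pathway genes. Treated arrays of Id3, Id4, Msx2, Bambi, Smad7 and Fst lie below untreated ones in both genotypes, while the groups of Id2 overlap and Smurf2 is slightly higher with Shh.

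The regions upstream of Id3, Id4 and Msx2, which fell together, are shown beside that of Id2, which did not pass. Each is the 250 bases before the gene start in RefSeq on GRCm38.p6, read on the gene's strand, with capitals for the motifs searched. The Id2 region is chr12:25096093-25096342 (minus strand), that of Id3 chr4:136143572-136143821 (plus), that of Id4 chr13:48260866-48261115 (plus) and that of Msx2 chr13:53472781-53473030 (minus).
Id3: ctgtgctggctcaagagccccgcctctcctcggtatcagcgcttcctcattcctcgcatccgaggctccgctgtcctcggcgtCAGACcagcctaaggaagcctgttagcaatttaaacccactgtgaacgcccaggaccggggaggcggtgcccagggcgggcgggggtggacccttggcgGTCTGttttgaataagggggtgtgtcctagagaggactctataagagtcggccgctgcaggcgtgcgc
Id4: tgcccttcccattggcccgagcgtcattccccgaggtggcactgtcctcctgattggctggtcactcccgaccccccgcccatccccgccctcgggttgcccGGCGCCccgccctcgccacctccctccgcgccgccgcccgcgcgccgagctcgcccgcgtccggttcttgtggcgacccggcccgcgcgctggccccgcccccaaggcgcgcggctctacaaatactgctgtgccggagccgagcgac
Msx2: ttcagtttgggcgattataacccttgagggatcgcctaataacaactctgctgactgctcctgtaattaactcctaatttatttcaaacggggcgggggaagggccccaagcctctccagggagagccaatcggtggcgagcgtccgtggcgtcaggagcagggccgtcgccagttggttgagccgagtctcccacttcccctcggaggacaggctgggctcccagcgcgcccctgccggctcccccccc
Id2: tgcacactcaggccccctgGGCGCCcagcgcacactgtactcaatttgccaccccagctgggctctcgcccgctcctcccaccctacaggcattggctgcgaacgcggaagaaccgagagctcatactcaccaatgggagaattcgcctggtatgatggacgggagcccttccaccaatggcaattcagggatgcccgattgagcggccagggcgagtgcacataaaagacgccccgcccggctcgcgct

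The letters GGCGCC, the core of BMP response elements described in Id gene promoters, stood once upstream of Id4 (148 bases before the start) and once upstream of Id2 (231 bases before it). The short Smad element GTCTG, or CAGAC on the other strand, stood at 167 and 68 bases before the start of Id3. The Msx2 window held neither. GGCGCC was in 10 of the 23 pathway genes with a window in the table and in 9.59% of all 32851 windows of that length. The 10 were Bmpr1a, Bmpr2, Smad5, Smad9, Id2, Id4, Chrd, Grem1, Smurf2 and Nbl1. A pathway gene counted once if any of its windows matched, while the background counted single windows, so the 2 shares are not like measures. GTCTG was in 10 of the 23 and in 42.2% of all windows. The spaced element, GGCGCC with GTCT after 5 further bases of any kind, was in none of the 23 and in 0.07% of all windows, and the Gli site GACCACCCA in none of the 23 and in 0.225% of all windows. Both strands were searched for each motif, and the spaced element contains the first. A match describes the letters of this window alone.

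Among antagonists and modulators, Bambi and Fst fell in both genotypes. Bambi, a pseudoreceptor without a kinase domain that is induced by BMP, read 427, 446 and 320 untreated and 159 and 123 with Shh in wild type. In labelled knockout it read 369, 499 and 390 untreated and 120 and 105 with Shh. No treated array reached an untreated one. The Shh effects were -1.49 (SE 0.19, adjusted p = 0.000458) and -1.89 (SE 0.19, adjusted p = 0.000182), with calls held under every alternative in which it was tested. Fst encodes follistatin, which binds activins and some BMPs. It read 98.7, 110 and 110 untreated and 48.1 and 52.8 with Shh in wild type, and 128, 122 and 72.4 untreated and 59.7 and 48.7 with Shh in labelled knockout. It fell by 1.07 (SE 0.22, adjusted p = 0.00607) and by 0.95 (SE 0.22, adjusted p = 0.013). The second call was lost without replicate 10 (-0.80, adjusted p = 0.0937) and under quantile normalization (-0.67, adjusted p = 0.0602). The gene lay just above the filter.

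Smurf2, a ubiquitin ligase that targets Smads and their receptors, was the 1 pathway gene higher with Shh. It read 1565, 1601 and 1428 untreated and 1794 and 1888 with Shh in wild type, a rise of 0.27 (SE 0.09, adjusted p = 0.0495). The groups did not overlap, but the call was lost when any 1 of the 10 arrays was left out (adjusted p up to 0.228). Its value in labelled knockout was 0.23 (adjusted p = 0.0936). Its relative Smurf1 (-0.07 and 0.21), the extracellular antagonist Chrd (0.19 and -0.15) and Nbl1, a secreted BMP binder also called DAN (0.26 and 0.08), did not pass on the deposited scale.

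Grem1, a secreted antagonist of BMP2 and BMP4 that lay below the filter, read 64.2, 45.4 and 71 in untreated wild type cultures and 7.53 and 3.23 with Shh, both below the floor of 20.9. In labelled knockout cultures it read 41.2, 69.6 and 53.6 untreated and 56.6 and 30.8 with Shh. In a fit without the filter, Grem1 was at least 2.83-fold lower with Shh in wild type (adjusted p = 0.0202), where 12.4% of all 18193 genes were lower past the threshold. The labelled knockout value was -0.36 (adjusted p = 0.556). The difference of the Shh effects between genotypes did not pass (adjusted p = 0.89) and has no exact size, since the treated wild type arrays were at the floor. The antagonist Nog read 26.9 to 80.8 untreated and 14 and 13 with Shh in wild type, where both treated arrays were below the floor, so that its difference has only a bound (adjusted p = 0.118 in the same fit). Chrdl1 gave -0.90 (SE 0.38, adjusted p = 0.153) there and -0.62 in labelled knockout. A slightly dimmer Chrdl1 probe set gave -1.72 and -1.95 (SE 0.21). The others gave -0.46 and -0.36 (SE 0.53) and, near the floor, -0.12 and 0 (SE 0.06). All of them lay below the filter.

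Of the homeobox targets, Msx2 fell and Msx1 did not pass. Msx2 read 237, 365 and 376 untreated and 91.2 and 21.3 with Shh in wild type, the lowest being just above the floor. In labelled knockout it read 290, 341 and 270 untreated and 82 and 49.6 with Shh. Treated and untreated arrays did not overlap. The Shh effects were -2.86 (SE 0.51, adjusted p = 0.00281) and -2.23 (SE 0.51, adjusted p = 0.0115). The treated wild type arrays differed from each other more than those of other called genes, and the wild type value was -1.81 without replicate 9 and -3.91 without replicate 7, both past the threshold. The labelled knockout call was lost without replicate 10 (-1.87, adjusted p = 0.0869). Msx1 read 46.5 to 132 untreated and 58.5 to 96.4 with Shh and had values of 0.22 and -0.55.

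The genes of neighbouring lists were counted in the same fit and on the same scale. There 19.8% of all tested genes were lower and 14% higher in wild type, and 17% and 11% in labelled knockout. Of 20 tested further BMP genes, 7 fell in both genotypes (35%), and 1, Stub1, rose in wild type (0.29, adjusted p = 0.0434). Gdf10, a BMP-related ligand made by Bergmann glia and astrocytes, read 5403, 6457 and 5242 in untreated wild type cultures and 308.9 and 352.6 with Shh, with effects of -4.10 there and -3.08 in labelled knockout. The BMP co-receptor Rgma fell by 0.99 in both, and the follistatin-like gene Fstl1 had effects of -0.73 and -0.72. Of 17 tested genes of the TGF-beta and activin arm, 10 fell (58.8%) and 1 rose (5.88%) in wild type. In labelled knockout 8 fell (47.1%) and 2 rose (11.8%). Of that arm, the co-receptor endoglin (Eng) had effects of -2.81 and -3.05, the type II receptor Tgfbr2 of -2.00 and -2.46, and the ligand gene Tgfb2 of 0.96 and 1.07.

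A list of BMP-responsive targets had 11 tested genes and shares most of its called members with the genes above. Of these 11, 6 fell in wild type (54.5%, against 19.8% of all tested genes) and 7 in labelled knockout (63.6%, against 17%). Outside the pathway genes already described these were Hes1 (-1.34 and -0.92) and, in labelled knockout, Gata2 (-0.95). Among 12 tested partners of Id proteins and related helix-loop-helix factors, 5 fell in each genotype (41.7%): Neurod2, Neurog1, Ptf1a, Olig1 and Hes5. Neurog1, a proneural factor, had an effect of -2.66 in wild type, and Ptf1a, which specifies inhibitory cerebellar neurons, of -1.85. The E protein genes Tcf3 (0.23 and -0.11), Tcf4 (0.07 and 0.17) and Tcf12 (-0.25 and -0.27), the common partners of Id proteins and named here after their values were seen, did not pass. Of 6 tested Shh targets 4 rose in both genotypes (66.7%, against 14% and 11% of all tested genes). Among them Gli1 had effects of 1.05 and 0.57 and the Shh receptor Ptch1 of 0.98 and 0.92.

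Markers of other cell types moved with the BMP genes. In bulk samples fewer cells of a type and less RNA per cell cannot be told apart. The counts below stand beside the 19.8% of all tested genes lower in wild type and the 17% in labelled knockout. The summed signal of 12 astrocyte and Bergmann glia markers was 57033 to 72057 in untreated wild type, 62494 to 65229 in untreated labelled knockout, 24314 to 25978 in treated wild type and 29956 to 33718 in treated labelled knockout cultures. Of these 12, 9 fell in each genotype, and 1 rose in wild type and 2 in labelled knockout, with list medians of -1.61 and -1.17. For 11 endothelial and pericyte markers the sums were 6572 to 7627, 6676 to 8372, 465 to 561 and 541 to 566, and of the 7 tested, 7 fell in wild type and 6 in labelled knockout. Pecam1 lay at the floor on all treated arrays, and Flt1 and Kcnj8 did on those labelled knockout. Microglia markers (10 genes) summed to 7402 to 10771, 6212 to 6924, 4103 to 4430 and 2400 to 3365, and 6 of 9 tested fell in each genotype, with P2ry12 at the floor in treated labelled knockout cultures. Cd68 went the other way, with 0.49 in wild type (adjusted p = 0.104) and a rise of 0.75 in labelled knockout (adjusted p = 0.027).

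Oligodendrocyte lineage markers (7 genes) summed to 29768 to 32650 and 23854 to 32640 untreated, and 7913 to 8578 and 10398 to 14031 with Shh, and 5 of 6 tested fell in each genotype. The 4 Purkinje cell markers summed to 13314 to 26100 and 17405 to 32031 untreated and 3810 to 4242 and 3982 to 5437 with Shh, and all 4 fell in each genotype. The 12 fibroblast and meninges markers summed to 4882 to 6253 and 5086 to 5703 untreated and 4883 to 5048 and 4146 to 4210 with Shh, and 4 of 6 tested fell in each genotype while Pdgfra, the brightest of them, rose (0.62 and 0.47). Without Pdgfra the other 11 summed to 2279 to 2873 and 2563 to 3251 untreated and 620 to 628 and 558 to 562 with Shh, and the list medians were -1.45 and -2.07. Foxc1, Foxd1 and Slc6a13 were at the floor in treated wild type and Col1a1 and Slc6a13 in treated labelled knockout cultures. Choroid plexus and roof plate markers (6 genes) summed to 327 to 644 and 442 to 562 untreated and 255 to 382 and 309 to 410 with Shh, and 1 of 3 tested, Clic6, fell in wild type. The 9 granule precursor and neuron markers summed to 54235 to 67464 and 58134 to 60041 untreated and 56956 to 58683 and 58971 to 60007 with Shh. Most tested glial, vascular, fibroblast, microglial and Purkinje markers thus fell while granule markers did not pass, and the part of those cells in the falls of the BMP genes was not tested.

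**Figure D4:**
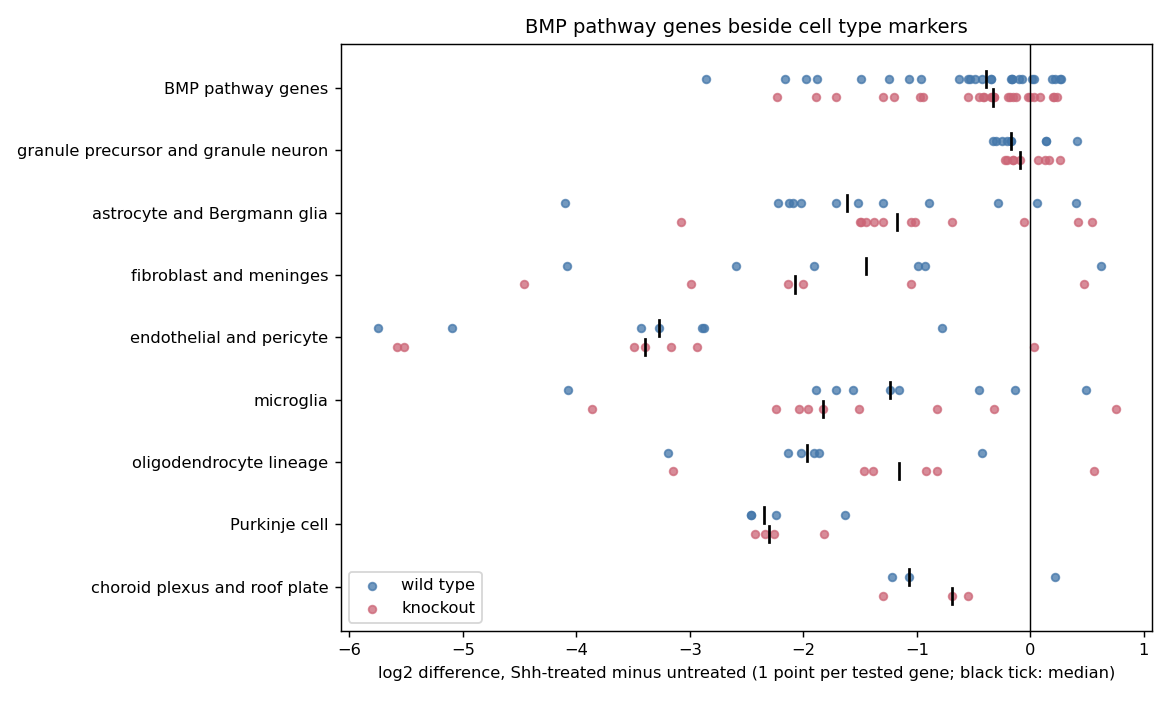
Log2 difference between Shh-treated and untreated cultures for the tested genes of the BMP set and of 8 marker lists, in wild type (blue) and labelled knockout (red), with black ticks at list medians. The medians of endothelial and pericyte markers lie at -3.27 and -3.40 and those of astrocyte and Bergmann glia markers at -1.61 and -1.17, against -0.39 and -0.33 for the BMP genes and -0.17 and -0.09 for granule markers.

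The comparison of genotypes asked which BMP genes differed in cultures labelled Bmi1 knockout. None of the 26 passed in untreated cultures (against 0.377% of all tested genes), with Shh (against 0.728%) or averaged over both (against 1.54%) by limma. At an unadjusted p under 0.05, 3 were higher in untreated labelled knockout cultures (Bmp5, Id3 and Nbl1, against 4.98% of all genes), 6 were higher with Shh (Bmp4, Bmp5, Bmpr1b, Id3, Id4 and Nbl1, against 6.49%) and 6 were higher on average (Bmp4, Bmp5, Bmpr1b, Acvr2b, Id3 and Nbl1, against 8.21%), and 0 were lower in each. For Acvr2b the probe set used gave 0.43 on average and 0.46 with Shh. A dimmer Acvr2b probe set above the filter went the other way, with -0.36 (SE 0.10) and -0.62 (SE 0.15). Arrays of the genotypes did not overlap for 2 higher genes untreated, Bmp5 and Nbl1 (7.69%, against 7.62%), and 0 lower ones (against 5.73%). With Shh, 11 were higher without overlap (42.3%, against 22.3%) and 2 lower, Chrd and Bambi (7.69%, against 16.8%). The median log2 difference of the 26 was 0.02 untreated, as for all tested genes, and 0.11 with Shh, where that of all tested genes was 0.01. Only 2 arrays per genotype stand behind the comparison with Shh.

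**Figure D5:**
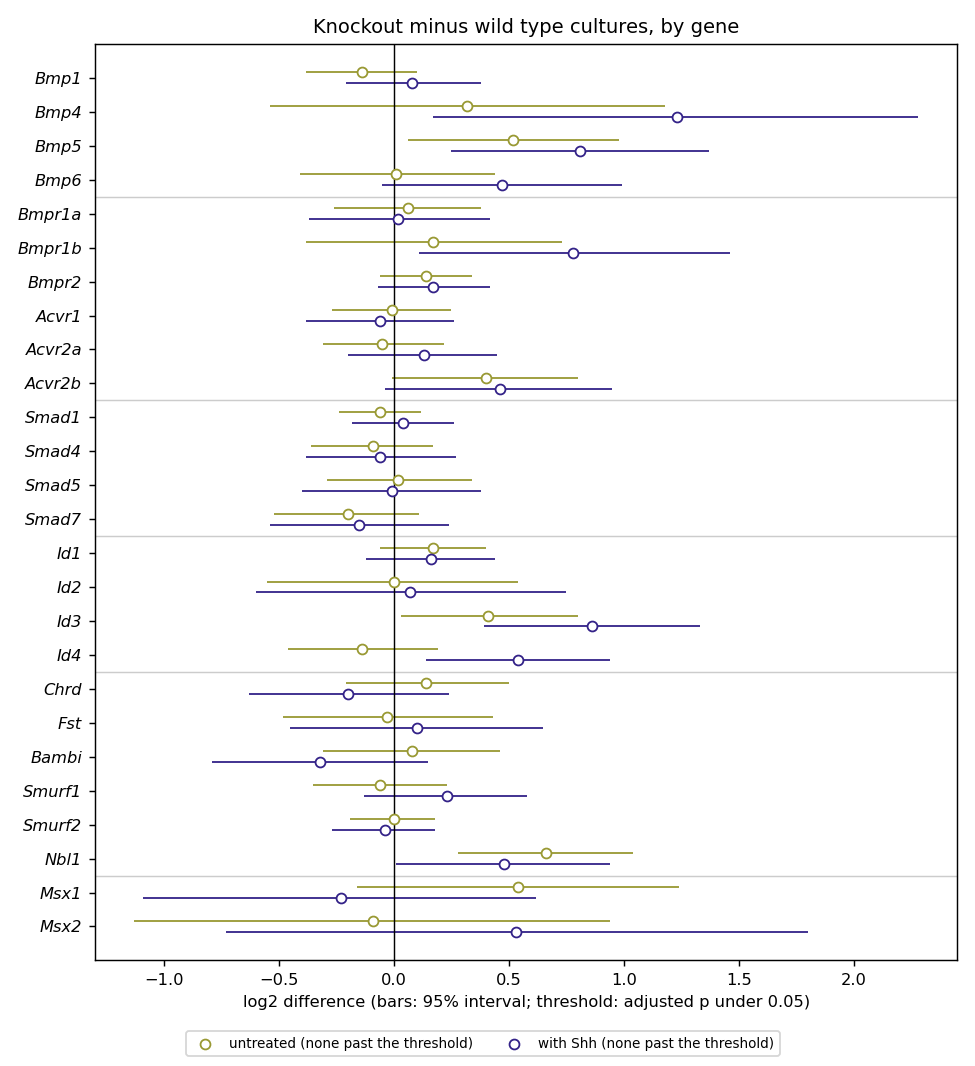
Log2 difference between labelled knockout and wild type cultures for the 26 tested BMP pathway genes, untreated (green) and with Shh (purple), with 95% intervals and roles ordered from ligands to homeobox targets. No gene passed an adjusted p of 0.05; the intervals of Id3, Bmp5 and Nbl1 lie above 0 in both conditions.

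Id3 was nearest to the threshold. With Shh it read 537 and 457 in labelled knockout against 246 and 302 in wild type, a difference of 0.86 (SE 0.21, adjusted p = 0.133). Untreated the arrays overlapped, with a difference of 0.41 (adjusted p = 0.528), and the average of both was 0.64 (SE 0.13, adjusted p = 0.059), or 156% of wild type. Id3 passed on average without replicate 3 (0.73, adjusted p = 0.0147), with a stricter filter (adjusted p = 0.0205) and with a variance trend (adjusted p = 0.0123), while its adjusted p for the average reached 0.189 without replicate 8. Under the variance trend it also passed with Shh (adjusted p = 0.0437).

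Nbl1 read 95.5, 110 and 94.5 in untreated labelled knockout cultures against 73.9, 56.5 and 59.5 in wild type. The difference was 0.66 (SE 0.17, adjusted p = 0.229), and 0.57 on average (SE 0.13, adjusted p = 0.0826). With Shh it read 108 and 102 against 94.3 and 60.4, and without wild type replicate 7 the average was 0.73 (adjusted p = 0.022). Bmp5 read 323, 290 and 387 against 276, 255 and 175 untreated and 218 and 313 against 161 and 138 with Shh, an average difference of 0.66 (SE 0.16, adjusted p = 0.0917). Bmp4 differed by 1.23 with Shh (SE 0.47, adjusted p = 0.401) and Bmpr1b by 0.78 (SE 0.30, adjusted p = 0.404). With Shh the labelled knockout arrays of Nbl1, Bmp5, Bmp4 and Bmpr1b were the higher ones. Untreated, the same held for Nbl1 and Bmp5, while the arrays of the genotypes overlapped for Bmp4 and Bmpr1b. The differences did not pass the test over all genes. Dimmer Bmpr1b probe sets below the filter gave -0.6 (SE 0.37) and 0 (SE 0.19) with Shh. Id1 differed by 0.17 untreated (95% interval -0.06 to 0.40) and 0.16 with Shh (-0.12 to 0.44), and Smad1 by -0.06 and 0.04.

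Beside these values stand those of glial and microglial markers. With Shh, 12 of 12 astrocyte and Bergmann glia markers had values above 0 (median 0.26), with Sparcl1 and Gdf10 past the threshold, and the oligodendrocyte lineage genes Olig1 (0.94) and Sox10 (1.28) were higher too. Cspg4, listed here with pericytes and also known from oligodendrocyte precursors, was higher with Shh (1.15, adjusted p = 0.00432) and on average (0.75, adjusted p = 0.00161). Gdf10 read 852.4 and 576.5 in labelled knockout against 308.9 and 352.6 in wild type with Shh, a difference of 1.09 (SE 0.18, adjusted p = 0.0373). Untreated, the glial marker median was -0.01, while all 9 tested microglia markers had values below 0 (median -0.53, none past the threshold), and with Shh C1qa was lower past it (median -0.81). On average C1qa (-0.84), C1qb (-0.87) and C1qc (-0.87) were lower past the threshold. The part of these cells in the genotype values of the BMP genes was not tested. Of the further BMP genes, the co-receptor gene Rgmb was higher on average (0.65, SE 0.11, adjusted p = 0.0242).

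Whether the response to Shh differed between genotypes was asked by the interaction. None of the 26 passed (against 0.00877% of all tested genes), and 1, Id4, had an unadjusted p under 0.05 with a higher value (against 2.88%). Id4 was 146% of wild type with Shh (0.54, SE 0.18) and 90.8% without (-0.14, SE 0.14), and the Shh effects differed by 0.68 (SE 0.23, 95% interval 0.17 to 1.19, adjusted p = 0.833), which did not pass. The 2 other Id4 probe sets gave 0.98 (SE 0.31) and 0.81 (SE 0.17). In the same comparison 12 of 12 astrocyte and Bergmann glia markers (median 0.38) and 6 of 6 oligodendrocyte lineage markers (median 0.77) lay above 0, none past the threshold, and their part in the Id4 value was not tested. For Id3 the difference of the Shh effects was 0.45 (95% interval -0.15 to 1.06), for Bambi -0.40 (-1.01 to 0.21) and for Smad7 0.05 (-0.45 to 0.56). The intervals were widest for Msx2 (-1.01 to 2.26) and Bmp4 (-0.45 to 2.27).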

How the data were processed

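RNA of each culture was hybridised to its own Affymetrix whole-genome mouse array, 10 in all. The authors deposited linear probe set intensity, computed by MAS5 in GCOS 1.2 per the submitters' processing notes. The scaling of each array to a trimmed mean of 500 was found from the values. A floor of 20.9, the 25th percentile over the table, was set before taking log2. Of 45101 probe sets, 64 controls were left out; 34945 carried 1 gene symbol, 932 several and 9160 none. Of those with 1 symbol, 34741 matched the RefSeq annotation of GRCm38.p6 by Entrez identifier, which changed 0 symbols. Genes were tested where the mean log2 signal of the brightest probe set was at least 6.25.

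All 10 arrays entered a limma fit (version 3.58.1, under R 4.3.3) with a mean for each group and moderated two-sided tests on 6 residual and 3.11 prior degrees of freedom, with Benjamini-Hochberg adjustment over all tested genes within each of 6 comparisons. The scripts were tested on simulated data. Errors are standard errors of the model, and the number of arrays limits the precision. All 33 members were named, in full where they passed in any comparison or lay nearest to it. The members and lists were chosen with earlier results of these data known. The labels name no pairs, but cultures with consecutive numbers deviated together from their group means (correlations of 0.278, 0.12 and 0.218 in the untreated pairs and 0.16 in the Shh pairs), so a second fit added these pairs as a replicate block. Other alternatives changed the scaling, floor, filter, probe set rule, variance model and arrays used, and 1 left out both arrays with a high 18S signal (replicates 1 and 6).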

Additional observations from a re-analysis of the deposited data

How the results depend on the processing

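With the pairs of consecutive replicates as a replicate block, 11 pathway genes passed for the Shh effect in wild type (42.3%, against 33.3% of all tested genes). In labelled knockout 8 passed (30.8%, against 27.9%). For the genotype effects and the interaction 0 passed (against at most 1.23%), and no call changed. Testing only genes above the 75th percentile left 16 pathway genes, of which 6 passed for Shh in wild type (37.5%, against 33.7% of all genes tested there), 5 in labelled knockout (31.2%, against 27.6%) and 1 (Id3) for the averaged genotype effect (6.25%, against 1.89%). Averaging all probe sets of a gene left 22, of which 7 and 5 passed for Shh (31.8% and 22.7%, against 28.6% and 23.1%). With an intensity trend and robust prior, 1 (Id3) passed for the genotype effect with Shh (3.85%, against 1.17%) and 1 (Id3) on average (against 2.3%). Leaving out 1 array at a time gave 8 to 11 for Shh in wild type, 4 to 8 in labelled knockout (4, or 15.4%, without replicate 10, against 17.9% of all genes), 0 to 1 for the averaged genotype effect, and 0 for the other genotype effects and the interaction. The share of all genes called moved with these, from 20.9% to 32.9% in wild type and 16.6% to 28% in labelled knockout. Smad1 in labelled knockout went from 0.00 to 0.29 with Shh under median centring. The construction of the filter and averaging alternatives leaves fewer genes; otherwise the cause was not tested. Signal near the floor of 20.9 limits Bmp2, Smad6, Smad9, Nog and Grem1, and the Shh groups have 2 arrays each.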
